A study of Homo sapiens with 2 samples.

Results

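Prostaglandin E2 is made, carried into cells, degraded and sensed by the products of 10 genes described here in MKN45P, a highly metastatic human gastric cancer cell line, and in its parental line MKN45. The genes were PTGS1, PTGS2, PTGES, PTGES2 and PTGES3 for synthesis, HPGD and SLCO2A1 for breakdown and uptake, and PTGER2, PTGER3 and PTGER4 for receptors. They were chosen by pathway role, with the differences between the lines on these arrays already known, so their differences are a description and no test or support is drawn from them. Their members were the probesets, the small groups of probes placed along a gene by exon, whose platform annotation gave exactly 1 of these symbols. There were 131 such probesets of 286871 with a single symbol, and 10 genes of 18923.

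The study held 1 Affymetrix exon array of MKN45P and 1 of MKN45. Both lines were grown in RPMI medium with 10% serum and harvested with trypsin, and the labels name no drug treatment. The labels do not say how MKN45P was derived or how many clones it holds. With 1 array per line there was no replicate error and no test between the lines, and their number limits the precision. The spread given with each gene is that between its probesets within this array pair.

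Prostaglandin E2 is an arachidonic acid product that acts on neighbouring cells. Cyclooxygenases, encoded by PTGS1 and the inducible PTGS2, turn arachidonic acid into prostaglandin H2, and terminal synthases turn that into prostaglandin E2. The transporter encoded by SLCO2A1 takes prostaglandin E2 into cells, where the dehydrogenase encoded by HPGD oxidises it to a form with little receptor activity. The EP2 and EP4 receptors raise cyclic AMP through the G protein Gs, and EP3 mostly lowers it through Gi. In the stomach prostaglandin E2 is known for protection of the mucosa, and in gastrointestinal tumours for high PTGS2 and low HPGD.

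The promoters of the 3 genes that lay more than 2-fold apart between the lines are printed, so that a reader can see which sequences stand before them. RefSeq promoter windows on GRCh38.p14 matched 8 of the 10 genes, in 12 windows, and SLCO2A1 and PTGER3 had none in the table used. Each sequence is the 250 bases before an annotated start, read along the gene, and for HPGD the start nearer to the gene body of 2. Capitals mark matches on either strand to 3 motifs, none of which overlap here. The TATA box was searched as TATAAA. The core of the cyclic AMP response element was searched as TGACG. The GC box was searched as GGGCGG.
PTGER2 (chr14:52314062-52314311, plus strand): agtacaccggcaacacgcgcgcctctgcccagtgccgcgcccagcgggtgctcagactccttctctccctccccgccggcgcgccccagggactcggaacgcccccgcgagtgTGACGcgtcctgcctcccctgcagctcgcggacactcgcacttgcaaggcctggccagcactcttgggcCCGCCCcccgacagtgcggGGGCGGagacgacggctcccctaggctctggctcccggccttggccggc
PTGS2 (chr1:186680424-186680673, minus strand): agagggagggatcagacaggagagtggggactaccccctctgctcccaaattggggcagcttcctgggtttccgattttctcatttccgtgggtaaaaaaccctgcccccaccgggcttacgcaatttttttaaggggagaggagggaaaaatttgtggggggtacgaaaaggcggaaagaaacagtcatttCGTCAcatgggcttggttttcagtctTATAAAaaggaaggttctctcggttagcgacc
HPGD (chr4:174522489-174522738, minus strand): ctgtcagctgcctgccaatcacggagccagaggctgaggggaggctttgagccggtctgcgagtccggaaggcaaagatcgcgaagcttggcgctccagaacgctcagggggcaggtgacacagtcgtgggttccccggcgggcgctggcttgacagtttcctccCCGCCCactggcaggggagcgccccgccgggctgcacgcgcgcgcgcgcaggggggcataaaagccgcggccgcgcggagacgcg

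The 3 windows differed in these letters. PTGS2 held TATAAA beginning 32 bases before the start and TGACG on the opposite strand beginning 58 bases before it. It held no GGGCGG. PTGER2 held TGACG 137 bases before its start, GGGCGG in either orientation at 68 and 49 bases, and no TATAAA, and the printed HPGD window held only a GC box, at 85 bases. The other HPGD window held TGACG at 77 bases and no GC box. Among all 35116 promoter windows of this length, 10.7% held TATAAA, 21.2% held TGACG and 42.6% held GGGCGG, counting both strands. The base pair CG occurred 28 times in the PTGER2 window, 9 times in the PTGS2 window and 29 times in the printed HPGD window, against a median of 11 (interquartile range 3 to 23) over all windows. These matches describe letters and are not evidence of binding.

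In MKN45P the receptor gene PTGER2 and the cyclooxygenase gene PTGS2 were lower than in MKN45, and the breakdown gene HPGD was higher. For each gene the MKN45P value minus the MKN45 value was taken at every probeset, in log2 units, where 1 unit is 2-fold, and the median of these is the gene's difference. Genes were called measured if they had 4 or more probesets and if the median probeset level, as the mean of the lines, reached 1.92, which is the middle value over the whole array. By this filter 8 of the 10 genes were measured; PTGS1 and PTGER3 were below the level. Of the 8, 1 was at least 2-fold higher in MKN45P and 2 at least 2-fold lower. Over all 13130 measured genes the shares were 4.58% higher and 1.20% lower, which are printed for reference since these same differences were in view when the genes were picked. The 8 measured genes had a median of -0.24 and all measured genes a median of 0.03. The 2-fold limit fell in a wide gap among the members that were lower: PTGS2 at -1.68 was the nearest inside it and PTGER4 at -0.50 the nearest outside it.

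**Figure D1:**
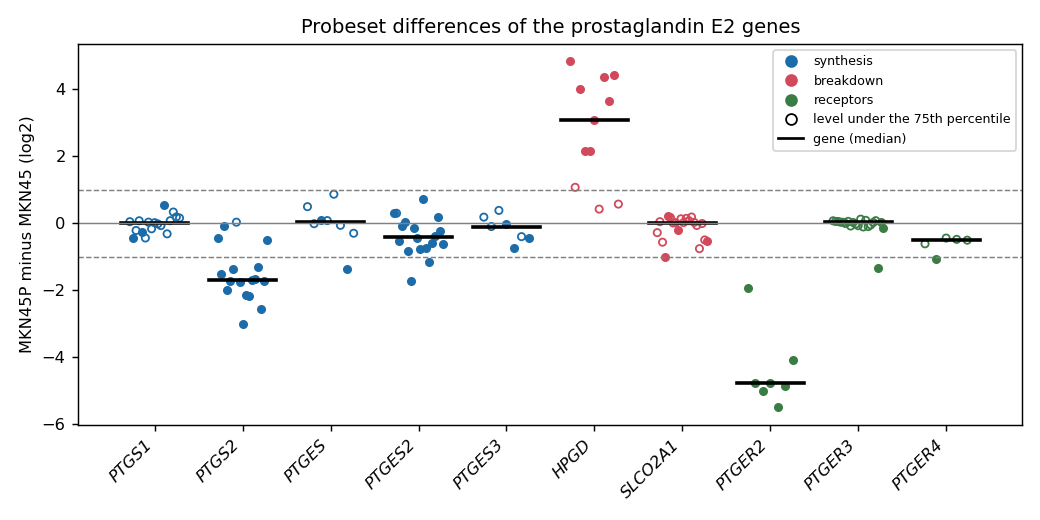
Differences of the 131 probesets of the 10 prostaglandin E2 genes (vertical axis, MKN45P minus MKN45 in log2 units), with 1 point per probeset, open where its level was under the 75th percentile, and a bar at each gene's median. All 7 PTGER2 probesets and 16 of 17 PTGS2 probesets lie below 0, all 11 HPGD probesets lie above it, and dashed lines mark 2-fold.

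Of the receptors, PTGER2, which encodes EP2, had by far the largest difference. Its 7 probesets had a median level of 4.56 in MKN45P and 9.56 in MKN45, and the gene difference was -4.77 (interquartile range over probesets -4.93 to -4.42), a level 27.2-fold lower in MKN45P. Probeset 3535786 read 5.97 in MKN45P against 10.74 in MKN45, probeset 3535798 read 5.62 against 10.48, and probeset 3535800 read 6.18 against 10.27. Probeset 3535785 read 4.56 in MKN45P against 9.56 in MKN45, probeset 3535797 read 2.96 against 8.45, and probeset 3535784 read 2.26 against 7.01. All of these were lower in MKN45P by more than 4 units. The remaining probeset, 3535783, read 2.91 in MKN45P against 4.84 in MKN45, a difference of -1.93. Among the 13130 measured genes 1 had a lower difference than PTGER2. In MKN45P 6 of the 7 probesets still stood at or above 2.77, the 75th percentile of all probeset levels, so signal from the gene remained on that array.

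A probeset that departs from its gene can mark a different transcript form or a poorly responding probe. The splicing index, a probeset's difference minus that of its gene, was examined in 58 probesets of the 8 measured genes with a level at or above 2.77, and was 2 or more in either direction in 1 of them. Over all measured genes the share of such probesets was 1.69%. The 1 probeset was 3535783 of PTGER2, with an index of 2.83. It was lower in MKN45P like the other PTGER2 probesets, and had the lowest MKN45 level of the 7, at 4.84. The lowest value on the MKN45P array was 1.42. From 4.84 this probeset could therefore not have shown the gene's full difference of -4.77. Whether it reads another transcript form was not tested.

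The EP4 receptor gene PTGER4 was also lower in MKN45P at each of its 5 probesets, by a small amount. Its median level was 1.80 in MKN45P and 2.29 in MKN45, with a difference of -0.50 (interquartile range -0.61 to -0.47), and 633 measured genes had a lower one. Of its probesets, 4 had levels under 2.77. The 1 with signal, 2807632, read 4.59 in MKN45P against 5.65 in MKN45, a difference of -1.06, so the gene's side of 2-fold depends on which probesets are used. RefSeq lists 3 pseudogenes of PTGER4, whose RNA could reach the same probes. The EP3 gene PTGER3 was near the bottom of the scale in both lines, with median levels of 1.77 in MKN45P and 1.69 in MKN45 over 21 probesets and a difference of 0.03 (-0.07 to 0.06). Its 3 probesets with signal were 2417997, at 3.46 in MKN45P against 3.42 in MKN45, 2417999, at 2.89 against 3.02, and 2417996, at 2.35 against 3.67. Of these 2417996 alone was past 2-fold, and it was under 2.77 in MKN45P. The EP1 gene PTGER1, from the list of other prostanoid receptors, had levels of 3.05 in MKN45P and 3.33 in MKN45 and a difference of -0.29 over 4 probesets. Of these 4 receptor genes only PTGER2 passed 2-fold as a gene.

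In synthesis, PTGS2, the inducible cyclooxygenase, was lower in MKN45P and the other genes were within 2-fold. The median level of its 17 probesets was 5.40 in MKN45P and 7.24 in MKN45. Levels ran from 1.67 to 8.40 in MKN45P and from 1.63 to 9.90 in MKN45. The difference was -1.68 (interquartile range -1.99 to -1.31), a level 3.20-fold lower, and 45 measured genes had a lower one. At 13 probesets MKN45P was at least 2-fold lower, most of all at 2448395, which read 5.35 in MKN45P against 8.34 in MKN45. The brightest, 2448385, read 8.40 in MKN45P against 9.90 in MKN45. The single probeset that was not lower, 2448393, read 1.67 in MKN45P against 1.63 in MKN45 and so carried no signal in either line. PTGS2 thus kept clear signal in MKN45P at 15 of its 17 probesets, counting levels at or above 2.77, against 16 in MKN45.

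**Figure D2:**
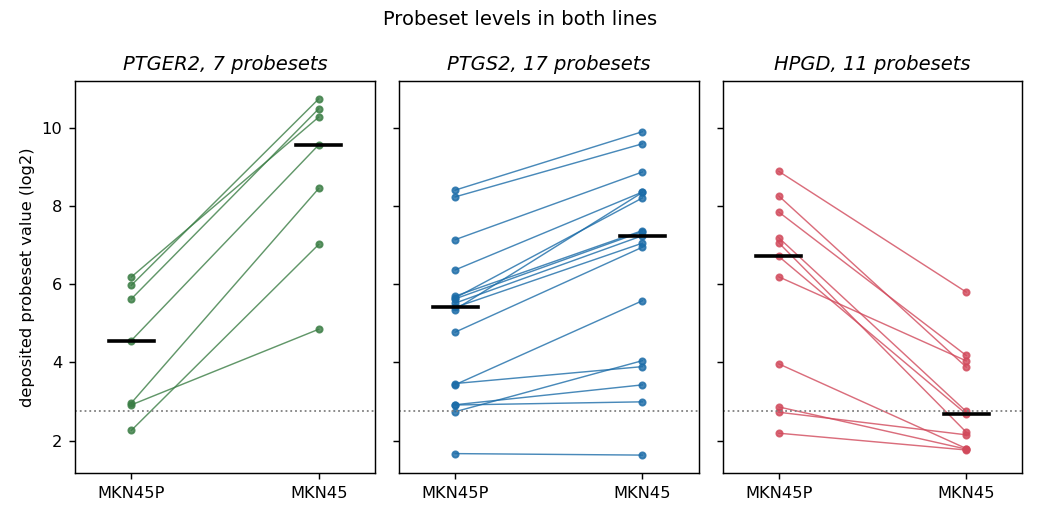
Deposited log2 values of each probeset of PTGER2, PTGS2 and HPGD in MKN45P (left of each panel) and MKN45 (right), joined by a line, with bars at the medians and a dotted line at 2.77, the 75th percentile of all probesets. The medians are 4.56 and 9.56 for PTGER2, 5.40 and 7.24 for PTGS2, and 6.70 and 2.68 for HPGD, and only 1 of the 17 PTGS2 lines is not lower in MKN45P.

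PTGS1, the cyclooxygenase that most tissues express at a steady level, was near the low end in both lines. Its median level was 1.91 in MKN45P and 1.89 in MKN45, with a difference of 0.02 (-0.21 to 0.08 over 17 probesets), 9 probesets higher and 8 lower. Only 3 probesets had signal, and the highest of them, 3188113, read 4.62 in MKN45P against 5.06 in MKN45. On this array pair PTGS1 thus showed little RNA and no shift beyond the spread between its probesets.

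The terminal synthases were within 2-fold. PTGES, the inducible microsomal synthase that often works with PTGS2, had median levels of 2.47 in MKN45P and 2.17 in MKN45 and a difference of 0.04 (-0.12 to 0.20), with 4 probesets higher and 4 lower. Its 2 probesets with signal disagreed: 3227073 read 4.41 in MKN45P against 4.30 in MKN45, and 3227085 read 4.11 against 5.47. PTGES2, a second membrane-associated synthase, had clear signal at 17 of 18 probesets, with median levels of 4.79 in MKN45P and 5.22 in MKN45. Its difference was -0.40 (-0.69 to 0.00), with 13 probesets lower and 5 higher; the lowest was 3226347, at 3.97 in MKN45P against 5.68 in MKN45. PTGES3, a co-chaperone of HSP90 that also has synthase activity, had levels of 2.46 in MKN45P and 2.51 in MKN45 and a difference of -0.09 (-0.41 to 0.08 over 7 probesets). The 3 PTGES3 probesets with signal were all lower in MKN45P, with a median of -0.43, and the other 4 had levels under 2.77. RefSeq lists 5 pseudogenes of PTGES3, so its probesets are uncertain. Single probesets past 2-fold thus occurred in PTGES and PTGES2 without moving the gene medians past it.

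In breakdown, HPGD, the dehydrogenase that inactivates prostaglandin E2, was higher in MKN45P at all 11 of its probesets. Its median level was 6.70 in MKN45P and 2.68 in MKN45, and the gene difference was 3.09 (interquartile range 1.61 to 4.20), a level 8.49-fold higher; 24 measured genes had a higher one. Probeset 2794417 read 8.88 in MKN45P against 5.80 in MKN45, probeset 2794428 read 8.25 against 3.88, and probeset 2794432 read 7.84 against 4.17. Probeset 2794435 read 7.18 in MKN45P against 2.74 in MKN45, probeset 2794411 read 7.05 against 2.21, and probeset 2794413 read 6.70 against 2.68. All of these were higher in MKN45P by more than 3 units. Probesets 2794416 and 2794414 read 6.18 and 3.96 in MKN45P against 4.04 and 1.80 in MKN45. The other 3 probesets had differences from 0.43 to 1.08. In MKN45P 9 of the 11 probesets were at or above 2.77, and in MKN45 4 of them were.

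SLCO2A1, which brings prostaglandin E2 to the cytosolic dehydrogenase, did not differ in the same way. Its median level was 2.15 in MKN45P and 2.10 in MKN45, and its difference 0.02 (-0.33 to 0.10 over 20 probesets). Of the 4 probesets with signal 3 were lower in MKN45P, among them 2696189 at 4.28 in MKN45P against 4.81 in MKN45. The uptake gene thus stood near the low end in both lines.

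**Figure D3:**
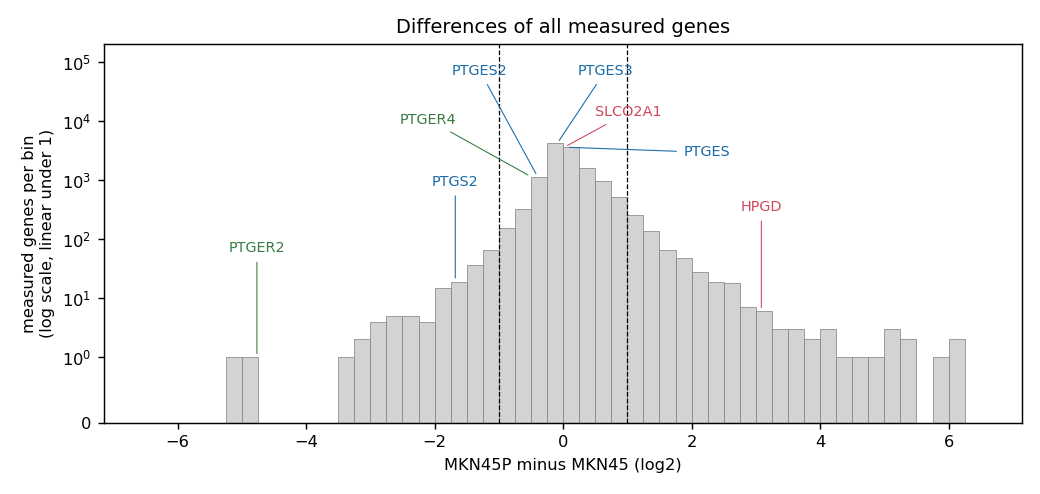
Number of measured genes (vertical axis, log scale, linear under 1) by difference between the lines (horizontal axis, MKN45P minus MKN45 in log2 units) for 13130 genes, with the 8 measured prostaglandin E2 genes marked. PTGER2 at -4.77 and HPGD at 3.09 lie in the tails, PTGS2 at -1.68 lies beyond the dashed 2-fold line, and the other 5 lie between -0.50 and 0.04.

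No gene flanking PTGER2 or PTGS2 was past 2-fold in the same direction, and 1 flanking HPGD was. Gene order was taken from RefSeq on GRCh38.p14, and the 5 nearest measured genes on each side were read. Some lay far off, as GLRX2 at 6416042 bases from PTGS2 and AGA at 2907881 bases from HPGD. Around PTGER2 (chr14:52314312-52328598) the 10 flanking genes had a median of 0.04 and ran from -0.03 to 1.24. The 1 past 2-fold was PYGL, a glycogen phosphorylase, which was higher. The prostaglandin D2 receptor gene PTGDR, which lies beside PTGER2 and is related to it, was below the filter, at 1.72 in MKN45P and 1.84 in MKN45. Around PTGS2 (chr1:186671791-186680423) the flanking genes ran from -0.48 to 0.68 with a median of 0.23. The lowest was PLA2G4A, the next measured gene toward higher coordinates, which encodes the cytosolic phospholipase that frees arachidonic acid for cyclooxygenases. It was lower at 15 of 17 probesets, with a median level of 1.80 in MKN45P and 2.15 in MKN45. Around HPGD (chr4:174490175-174522893) the flanking genes ran from -0.18 to 1.90, with a median of 0.19. AGA, a lysosomal glycosylasparaginase, was the 1 past 2-fold, and was higher in MKN45P like HPGD.

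Around the other members, PTGES2 had LCN2, the lipocalin gene, as its next measured neighbour at 6.22 while its own difference was -0.40. FAM102A (1.85) and PIP5KL1 (1.82) on its other side were 2-fold higher as well. PTGER4 had OSMR (3.36) and DAB2 (-1.41) among its flanking genes, PTGES3 had MYO1A (-1.92) and TMEM194A (1.21), and PTGER3 had CTH (1.49) and ZRANB2 (1.40). RABGAP1 (1.18) near PTGS1 and RYK (1.07) near SLCO2A1 were also past 2-fold, and no gene flanking PTGES was. The medians of the 10 flanking genes lay between -0.0019 and 0.29 for all 10 members.

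**Figure D4:**
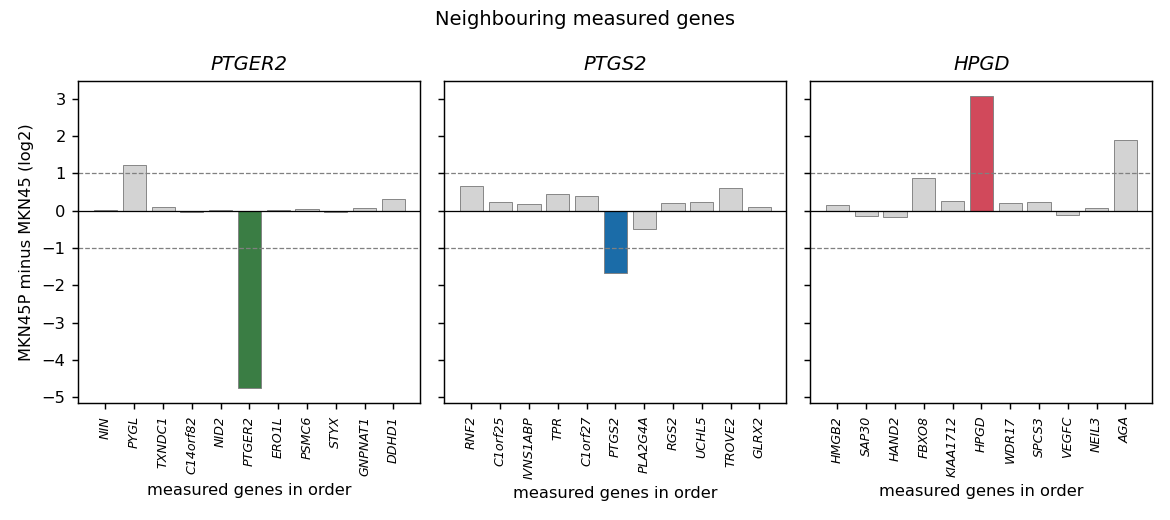
Differences (vertical axis, MKN45P minus MKN45 in log2 units) of PTGER2, PTGS2 and HPGD (coloured bars) and of the 5 nearest measured genes on each side in RefSeq order (grey bars, evenly spaced and not to genomic scale), with 2-fold at the dashed lines. Each coloured bar stands apart from its neighbours, whose medians are 0.04, 0.23 and 0.19.

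Genes upstream and downstream of the prostaglandin E2 genes were read from 10 related lists of 141 genes, chosen with the larger differences of these arrays known. Of these 109 were measured, 8 (7.34%) at least 2-fold higher in MKN45P and 3 (2.75%) at least 2-fold lower, with a median of -0.05. The shares over all 13130 measured genes were 4.58% higher and 1.20% lower. In arachidonic acid release 10 of 15 genes were measured, 2 of them 2-fold higher and none 2-fold lower (median -0.01). PLA2G16, a phospholipase now named PLAAT3, had levels of 6.40 in MKN45P and 3.27 in MKN45 and a difference of 2.27 (0.50 to 2.66 over 8 probesets). ANXA1, an annexin known to restrain phospholipase activity, had levels of 7.74 in MKN45P and 5.29 in MKN45, a difference of 1.89 (1.26 to 2.21), and was higher at all 15 probesets.

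Over all measured genes the shares were 1.20% lower and 4.58% higher. Among other prostanoid synthases 1 of 7 measured genes was 2-fold lower and none higher (median -0.10). That gene was AKR1C3, which reduces prostaglandins H2 and D2 to F forms, at 2.10 in MKN45P and 4.73 in MKN45 (difference -2.64), with near-identical relatives that make its value uncertain. CBR1 (-0.29), which reduces prostaglandin E2 to an F form, and TBXAS1 (-0.28), the thromboxane synthase, were within 2-fold. Among other breakdown and transport genes 1 of 8 was 2-fold higher (median 0.11). It was ZADH2, now named PTGR3, a prostaglandin reductase, with a difference of 1.21 (0.43 to 2.24 over 12 probesets) and median levels of 4.52 in MKN45P and 4.10 in MKN45. The reductases PTGR1 (0.12) and PTGR2 (0.16) and the exporter ABCC4 (0.11) were near 0, and SLCO3A1, a transporter of the same family as SLCO2A1, was at -0.82. None of the 3 other prostanoid receptor genes that were measured passed 2-fold: TBXA2R was at -0.43, PTGER1 at -0.29 and PTGIR at -0.23. PTGFRN, on the same list, encodes a protein that binds the prostaglandin F receptor and is no receptor for prostanoids itself, and was at -0.12.

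**Figure D5:**
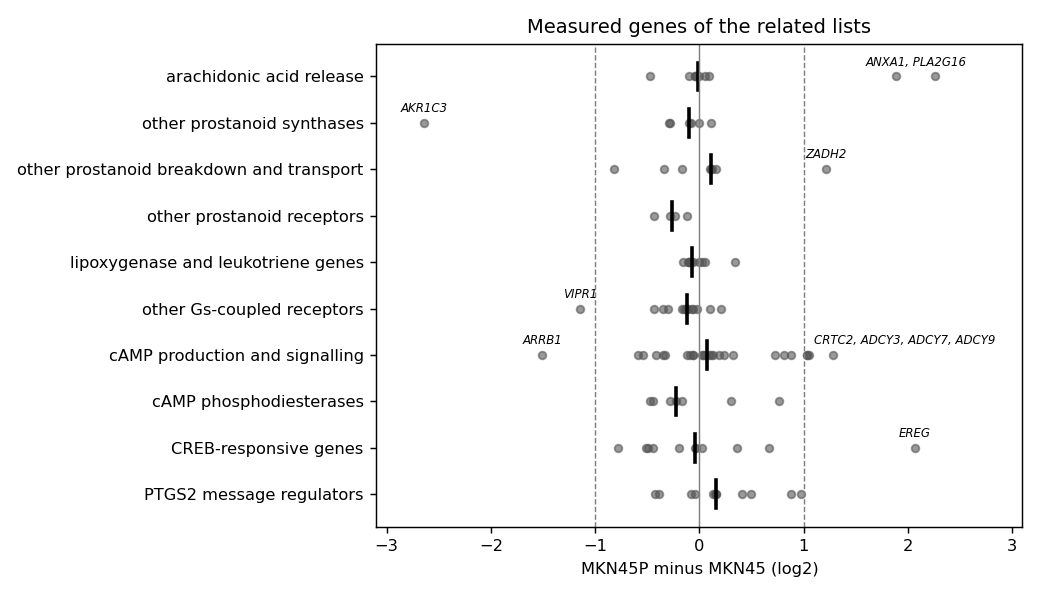
Differences (horizontal axis, MKN45P minus MKN45 in log2 units) of the measured genes of the 10 related lists, with 1 point per gene, a bar at each list's median and names, as the platform gives them, at genes past the dashed 2-fold lines. The list medians lie between -0.26 and 0.15, and AKR1C3 at -2.64 and PLA2G16 at 2.27 are the outermost points.

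Cyclic AMP genes, which lie downstream of EP2 and EP4, differed in both directions. Of 33 production and signalling genes 26 were measured, 4 of them 2-fold higher and 1 lower (median 0.07), where the shares over all measured genes were 4.58% and 1.20%. The adenylyl cyclases ADCY9 (1.28), ADCY7 (1.06) and ADCY3 (1.03), which make cyclic AMP, and CRTC2 (1.03), a coactivator of the transcription factor CREB, were just past 2-fold higher. With quantile normalization ADCY7 (0.96), ADCY3 (0.99) and CRTC2 (0.88) were within 2-fold. ADCY9 read a median of 4.24 in MKN45P and 3.03 in MKN45. The cyclases ADCY1 (-0.59) and ADCY6 (-0.54) lay the other way within 2-fold. CREB1, which encodes CREB, was at 0.81 with all 22 probesets higher. GNAI3, which encodes a subunit of Gi, was at 0.88 with 11 of 12 probesets higher. ARRB1, an arrestin that takes activated receptors out of service, was lower at all 19 probesets, at 4.22 in MKN45P and 6.43 in MKN45 (difference -1.51). None of 7 measured phosphodiesterases, which degrade cyclic AMP, passed 2-fold (PDE4A 0.76, PDE10A -0.48, PDE8A -0.44, PDE7A 0.30; median -0.22).

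Among 14 other receptors that couple to Gs, 1 passed 2-fold, and it was lower in MKN45P. The shares over all measured genes were 4.58% higher and 1.20% lower. The 1 receptor past 2-fold was VIPR1, a receptor for vasoactive intestinal peptide. It had levels of 2.76 in MKN45P and 4.53 in MKN45 and a difference of -1.14 (-2.05 to -0.37 over 17 probesets); the list's median was -0.12. The adenosine receptor gene ADORA2B, with signal in both lines, was at -0.43. Of 11 measured genes known to respond to CREB, EREG, an EGF receptor ligand, was 2-fold higher (2.06, 0.77 to 2.68 over 8 probesets), and the list's median was -0.04. FOS (-0.78), NR4A1 (-0.51), NR4A2 (-0.49) and SIK1 (-0.45) were lower within 2-fold, and FOSB (0.37) and VEGFA (0.67) were higher within it. JUNB (-0.20), PER1 (-0.04), CITED2 (-0.04) and DUSP1 (0.03) made up the rest of the measured list. EREG read a median of 6.10 in MKN45P and 5.24 in MKN45, less than 2-fold apart.

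The nearest genes to PTGER2 in pattern were sought by Euclidean distance over its 2 median levels, the only points these arrays give. They were KIAA0114, now named DANCR, at a distance of 1.78 log2 units, SLC7A7 (1.85), SLC12A2 (1.87), ANO1 (1.93) and, farthest of the 5, CREB3L1. All were lower in MKN45P, by differences from -2.97 in SLC12A2 to -1.74 in ANO1, and none came close to both PTGER2 levels. A distance over 2 values says nothing of shared control.

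The lines were checked against marker genes of cell types, and no gastric marker was among them. All 8 epithelial markers, CDH1, EPCAM, KRT8, KRT18, KRT19, CLDN4, CLDN7 and ELF3, had median levels at or above 2.77 in both lines. The medians of these 8 genes ran from 3.13 to 10.74 in MKN45P and from 3.31 to 10.26 in MKN45. KRT19 had only 2 probesets. Cells that could bring PTGS2 or PTGER2 message from outside the tumour line were also looked for. Of 8 macrophage and mast cell markers on the array none reached that level in either line (1.74 to 2.47 in MKN45P and 1.67 to 2.69 in MKN45). Of 7 lymphocyte markers NKG7 alone did, in MKN45, at 2.50 in MKN45P and 3.12 in MKN45. Of 8 endothelial markers, which ran from 1.74 to 2.85 in MKN45P and from 1.75 to 3.40 in MKN45, CLDN5 and ENG did in both lines. Of 8 fibroblast markers, which ran from 1.69 to 4.52 in MKN45P and from 1.82 to 3.35 in MKN45, FBLN1 did in both and COL1A1 in MKN45P. FBLN1 was past 2-fold higher, with a difference of 1.10 and 22 of 26 probesets higher in MKN45P. Of 6 mesothelial markers 5 reached the level in each line: KRT5 (1.06), CALB2 (0.48), MSLN (0.34), WT1 (-0.59) and UPK3B (-1.06), given with their differences. Whether any such cells were present, and their part in the differences of PTGS2, PTGER2 and HPGD, was not tested.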

How the data were processed

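RNA from 1 MKN45P and 1 MKN45 culture was read on an Affymetrix exon array after ribosomal RNA reduction, per the labels' protocols. The authors deposited 1 value for each of 877986 probesets and each array, read here as log2 from their range of 1.42 to 13.48. Partek and the hg18 build were used, per the submitters' processing notes; how background, probe summary and scaling between arrays were handled is not given in the sources used here, and no positions in hg18 were used.

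By GEO's platform annotation 286871 probesets had 1 symbol, 3137 had several and were left out, and 587978 were unnamed. RefSeq (GRCh38.p14) served for current names, gene order and promoters; of 18923 symbols 16000 were current and 2815 matched 1 gene by an older name. Gene differences, the 2-fold limit, the filter and the splicing index are defined with the results. With 1 array per line no test was made.

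The members and lists were chosen with earlier results of these data known. Named genes were all 10 members, list genes past 2-fold or up to 4 with the largest differences (a few others were added after their values were seen), flanking genes past 2-fold, and markers at or above the 75th percentile. Alternatives were 3 other scalings, 2 other gene summaries, and other filters on level and probeset number. Only the step from probesets to gene differences was tested on simulated data, with added shifts well past 2-fold. The other steps, and shifts near 2-fold, were not tested in this way. Python 3.11.15 was used with numpy 2.4.6, pandas 2.3.3, statsmodels 0.14.6 and matplotlib 3.10.9.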

Additional observations from a re-analysis of the deposited data

How the results depend on the processing

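PTGER2, PTGS2 and HPGD kept their direction and stayed past 2-fold in each of the 6 other scalings, gene summaries and probeset choices, with ranges of -5.00 to -4.41, -1.83 to -1.50 and 2.80 to 4.03. Of 60 recomputed member differences 56 moved by less than the SD over the gene's probesets. The other 4 came from keeping just the probesets whose level reached the 75th percentile. They were PTGER4 -1.06, PTGES -0.63, SLCO2A1 -0.36 and PTGS1 -0.25, each from 4 or fewer probesets. The 56 included changes of sign. With the mean over probesets PTGS1 (-0.02), PTGER3 (-0.05), PTGES (-0.02) and SLCO2A1 (-0.14) turned from slightly higher to lower in MKN45P. Requiring 8 probesets left 1 prostaglandin E2 gene 2-fold lower in MKN45P, since PTGER2 has 7.

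Keeping just those probesets left 10645 measured genes, with 1218 at least 2-fold higher and 313 lower. With the main filter 602 of 13130 were higher and 157 lower, so both shares rose. Among related genes 13 were higher and 5 lower, against 8 and 3 with the main filter. How many related genes stayed measured was not recorded, so the 13 and 5 give no shares. A probeset bright in 1 line can pass this limit through that line alone. Subtracting median levels, line from line, gave 1263 higher and 305 lower of 13130 measured genes. The cause was not tested. Quantile normalization gave 6 related genes higher in place of 8, with ADCY3 (0.99), ADCY7 (0.96) and CRTC2 (0.88) no longer past 2-fold. The 6 included a related gene from outside those 8. CRTC2 was at 0.94 after loess, and subtracting median levels left ADCY3 at 0.83, EREG at 0.86 and ZADH2 at 0.42. No paired analysis was possible because each line has 1 array. The number of arrays limits the precision.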

Other observations

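Arachidonic acid also feeds the lipoxygenases, which make leukotrienes and related lipids. Of 13 lipoxygenase and leukotriene genes 10 were measured and none passed 2-fold (median -0.07). The largest differences were in ALOX12B (0.34), ALOX15B (-0.16), LTB4R2 (-0.11) and ALOXE3 (-0.10), and 3 genes had a median level at or above 2.77 in each line.

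The message of PTGS2 is known to be bound and turned over by RNA-binding proteins and its gene to be driven by NF-kappaB and C/EBP factors. All 12 such genes on the list were measured and none passed 2-fold (median 0.15). TIA1, a translational silencer, was at 0.98, CEBPB at 0.88 with all 9 probesets higher in MKN45P, RELA at 0.50 and ZFP36L1 at -0.43.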
